A study of Mus musculus with 2 samples.

Results

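The translation initiation and elongation factor genes are described here by the Mbnl2 tags that lie on them in mouse quadriceps muscle. Membership was set by gene symbol, as the protein-coding genes of the mm9 GENCODE annotation (release vM1) whose symbol starts with Eif and a digit, with Eef or with Pabpc. This rule found 75 loci with 74 distinct symbols, of 22380 protein-coding genes in all. The rule uses no measured value, although it was set with earlier results of these data known, and it also takes in the 4 Argonaute genes under their older symbols Eif2c1 to Eif2c4, which are small RNA effectors and not translation factors.

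In HITS-CLIP, UV light links proteins to bound RNA, RNase shortens the RNA, and the fragments that copurify with 1 protein are sequenced as tags. Mbnl2 was immunopurified with mAb 3B4 from snap frozen, powdered quadriceps of 3 WT and 3 *Mbnl1* KO mice, all 15 to 16 weeks old, at an RNase A concentration of 38.6 U/ml (high) or 0.0386 U/ml (low). The labels give the strain of both groups as C57BL/6, while the study names a C57BL/129 background for its compound KO mice. The *Mbnl1* KO mice are Mbnl1-/- in every cell, through an allele that deletes exon 3, and the Mbnl2 gene is intact in both groups. The study reports a higher level of Mbnl2 protein in *Mbnl1* KO than in WT quadriceps. The study addressed where Mbnl2 binds RNA in muscle with and without Mbnl1. Its authors merged the 3 mice of each genotype into 1 table, so how much mice of a genotype differ is unknown, and the genotypes are compared without a test. The RNase level, high or low, that a tag came from is not marked.

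A eukaryotic mRNA is read once the cap-binding complex eIF4F (eIF4E, eIF4G and eIF4A) has recruited the small ribosomal subunit, which carries eIF1, eIF1A, eIF3 and the initiator tRNA delivered by eIF2. The eEF1 factors then bring aminoacyl-tRNAs to the ribosome, eEF2 moves it along, and cytoplasmic poly(A)-binding proteins link the tail of the mRNA to eIF4G. Mbnl proteins are zinc finger proteins that bind GC flanked by pyrimidines, near alternative exons and in 3′ UTRs.

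The tables held 343554 unique tags in WT and 476543 in *Mbnl1* KO muscle, and counts were multiplied by 1000000 and divided by these totals, which gives scaled tags. Single-base tags, whose reference sequence is at least 70% one base, made up 43.3% of the WT table and 16.8% of the *Mbnl1* KO table. Over the translation factor genes they were 61 WT tags (16.6%) and 46 *Mbnl1* KO tags (4.12%). The scaling to table totals carries this difference into every ratio, and the main ratios are also given without these tags. The 8 skeletal muscle markers summed to 2783 WT and 7185 *Mbnl1* KO scaled tags, and none was at 0 in both tables. Markers of other cells summed to 565 and 1824 scaled tags for fibroblasts, 108 and 183 for endothelium, 26.2 and 27.3 for immune cells, 23.3 and 18.9 for blood, 17.5 and 92.3 for Schwann cells, and 14.6 and 73.4 for adipocytes, and their part in the ratios below was not tested. In muscle pieces, fewer cells of a type and less RNA per cell cannot be told apart. RNA levels were not analysed here, so a tag count reflects both how much of a transcript was present and how much of it Mbnl2 held. The part that the higher Mbnl2 protein level of *Mbnl1* KO muscle has in the ratios was not tested either.

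Together the translation factor genes had 368 WT and 1116 *Mbnl1* KO tags on their strand, which is 1071 and 2342 scaled tags. The *Mbnl1* KO/WT ratio of these scaled counts was 2.19, with an interval of 1.94 to 2.47. Here and below the interval is the exact 95% Clopper-Pearson interval of the *Mbnl1* KO share of the tags turned into a ratio. It reflects counting error alone, so it speaks to these 2 tables and not to the genotypes. All other protein-coding genes had a ratio of 1.61 (1.60 to 1.62). Without single-base tags the ratio was 1.71 (1.51 to 1.95) at the translation factor genes and 1.38 (1.37 to 1.40) elsewhere. Tags were spread unevenly. Of the 75 loci, 4 had 0 tags, 30 had 1 to 9, 19 had 10 to 19 and 22 had at least 20, and 7 of these had at least 50.

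Clusters were runs of overlapping tags on the strand of the gene with at least 10 tags over both tables, whatever the depth at any 1 base. There were 15 of them in 7 genes, 13 in a 3′ UTR, 1 in an intron and 1 in an exon part outside CDS and UTR. The sequence around the base with most tags is printed for the clusters that carry the results below, because it shows what Mbnl2 tags centred on. Each line gives 30 nt of mm9 on the strand of the gene, 5′ to 3′, with the motifs in capitals, namely TGCT and TGCC as well as CGCT and CGCC (the last T of 1 motif can be the first of the next).
Eif4e site 1, chr3:138218936-138218965: tTGCTgtcctctTGCTgatggcTGCTagat
Eif4e site 2, chr3:138219311-138219340: tcttaggttatttTGCTttggttacaatgg
Eif4h site 1, chr5:135097185-135097214: cattcttggcttTGCTatatctatctagtg
Eif4h site 2, chr5:135096009-135096038: cctCGCCTGCCatcttctcTGCTtctgaga
Eif4g2 site 1, chr7:118215675-118215704: TGCTagattttaaaatccttgagcctgggc
Eif4g2 site 2, chr7:118214985-118215014: attggctccctctTGCTGCTtttcattttt
Eif4g2 site 6, chr7:118215867-118215896: aggctgttttaagttagaaaactgaatagc
Eif1ax site 1, chrX:155825506-155825535: gcagTGCTtTGCTtcTGCTtaggtgataca
Eif2c2 site 1, chr15:72933748-72933777: ttcctctctctccTGCTctggtttgactaa
Eef1a2 site 1, chr2:180882427-180882456: cttccgCGCCagCGCTcaccaCGCTcagtg
Eif4e3 site 1, chr6:99422773-99422802: aaaaaaaaaaaaaaaaaaaaaaaaaagaaa

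A motif was present in 11 of the 15 windows (73.3%), and in 10 of the 13 in 3′ UTRs (76.9%). Of all 30-nt windows tiling the 3′ UTRs of the translation factor genes, 1135 of 4073 held one (27.9%), and of those tiling all protein-coding 3′ UTRs 28.1% did. The share at these sites lies beside 74.8% of 1067 clusters in all protein-coding 3′ UTRs, found in the same way. TGCT was the most frequent form, in 9 of the 15 windows, while CGCT and CGCC were in 2 each and TGCC in 1. Only the strand of the gene was searched, and a match describes the letters, not a binding site. The 4 windows with no motif were sites 4, 5 and 6 of Eif4g2 and site 1 of Eif4e3. The A-rich window in intron 7 of Eif4e3 consisted wholly of single-base tags, and it had 6 WT and 4 *Mbnl1* KO tags.

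Eif4g2, a member of the eIF4G family that lacks the eIF4E-binding part and serves cap-independent initiation, carried the most tags over both tables (chr7:118211499-118226544, minus strand). It had 28 WT and 109 *Mbnl1* KO tags (81.5 and 229 scaled) and a ratio of 2.81 (1.84 to 4.42). None of them was a single-base tag, but without such tags the table totals differ, and the ratio was 1.92 (1.25 to 3.01). With tags of at least 2 reads and no single-base tags it was 1.59 (0.905 to 2.98). Its last exon held 22 WT and 90 *Mbnl1* KO tags, so most of the signal in both tables was 3′ UTR signal. The plot of tags along the 3′ UTRs shows it as separate peaks, of which those with at least 10 tags lay up to 1906 nt past the stop codon. Site 1, 519 nt past the stop codon, had 2 WT and 15 *Mbnl1* KO tags (ratio 5.41, 1.26 to 48.7), whereas site 2, at 1209 nt, had 6 and 9 (ratio 1.08, 0.344 to 3.69). The intervals of neighbouring peaks overlap, and a difference between sites of 1 UTR was not tested. Site 6, at 327 nt and with no motif, had 0 WT tags, which allows up to 8.73 scaled tags, and 10 *Mbnl1* KO tags, or 21.0 scaled. No base of site 6 was covered by more than 4 tags, so its printed window rests on few tags. Site 3 lies on the small nucleolar RNA snoU97 inside the gene and had 4 WT and 8 *Mbnl1* KO tags, so it cannot be assigned to the Eif4g2 mRNA.

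The tags of Eif4e, which encodes the cap-binding protein, were concentrated in the same way (chr3:138189155-138220563, plus strand). There were 20 WT and 71 *Mbnl1* KO tags (58.2 and 149 scaled) with a ratio of 2.56 (1.54 to 4.44). Without single-base tags the ratio was 2.03 (1.18 to 3.67). The last exon held 15 WT and 55 *Mbnl1* KO tags. Site 1, with its 3 copies of TGCT 486 nt past the stop codon, had 4 WT and 29 *Mbnl1* KO tags. Its ratio of 5.23 (1.84 to 20.5) was 3.57 (1.25 to 14.0) without single-base tags and 1.99 (0.570 to 10.7) with tags of at least 2 reads. Site 2, at 861 nt with a single TGCT, had 6 and 15 tags and a ratio of 1.80 (0.661 to 5.67). Intron 2 held 0 WT and 10 *Mbnl1* KO tags. Per length of exon, Eif4e was the densest of the 22 genes with at least 20 tags in both tables, with 16.2 WT and 40.0 *Mbnl1* KO scaled exon tags per kb.

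Eif4h and Eif4b encode related RNA-binding cofactors that stimulate the helicase eIF4A. Eif4h (chr5:135095747-135115218, minus strand) had 8 WT and 46 *Mbnl1* KO tags (23.3 and 96.5 scaled) and a ratio of 4.15 (1.94 to 10.2), which was 1.79 (0.670 to 6.01) with tags of at least 2 reads. Without single-base tags the ratio of Eif4h was 2.83 (1.32 to 6.94). Its last exon held 7 WT and 38 *Mbnl1* KO tags, and its exon density was 8.39 and 35.4 scaled tags per kb. Its 3′ UTR had a cluster near either end. Site 1, 182 nt past the stop codon, had 3 WT and 15 *Mbnl1* KO tags (ratio 3.60, 1.02 to 19.4), and site 2, at 1358 nt, had 2 and 11 (ratio 3.97, 0.865 to 36.8). Eif4b had 6 WT and 17 *Mbnl1* KO tags and a ratio of 2.04 with an interval that includes 1 (0.768 to 6.33). Its last exon held 2 of the WT tags and 14 of the *Mbnl1* KO tags.

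**Figure D1:**
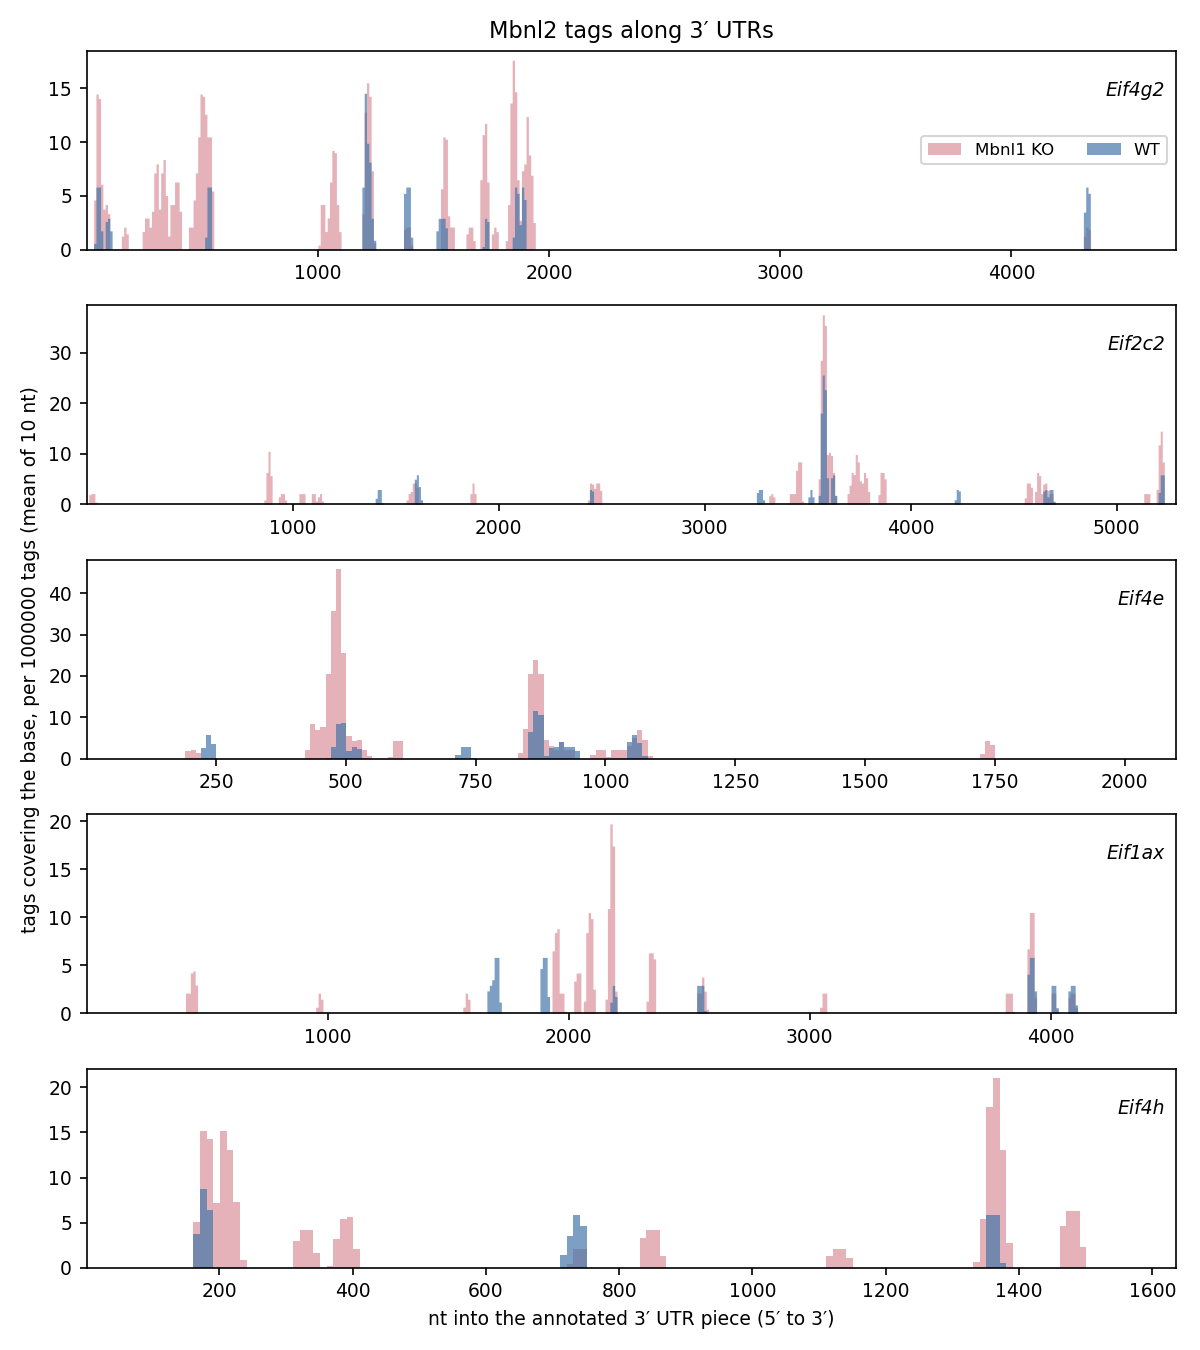
Tags covering each base along the longest 3′ UTR piece of 5 genes, in scaled tags averaged over 10 nt (y axis), against nt into the annotated piece (x axis), for WT (blue) and *Mbnl1* KO (pink). The tags stand in separate peaks, as at the triple TGCT of Eif4e near 486 nt with 4 WT and 29 *Mbnl1* KO tags, and positions without a bar had 0 tags.

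The scaffold genes Eif4g1 and Eif4g3 had the highest ratios of all 22 genes, and their tags lay elsewhere. Eif4g1 (chr16:20668386-20692957, plus strand), the main eIF4G, had 4 WT and 35 *Mbnl1* KO tags (11.6 and 73.4 scaled) and a ratio of 6.31 (2.26 to 24.4). With tags of at least 2 reads its ratio was 3.73 (0.907 to 32.9). Coding exons held 26 of the 35 *Mbnl1* KO tags and 1 of the 4 WT tags, and the 3′ UTR held 0 and 1. The coding tags were scattered over many exons, with 7 at most in exon 6 of the merged gene model (the union of all annotated exons).

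Eif4g3 (chr4:137548937-137764423, plus strand), a close paralogue of it, had 17 WT and 114 *Mbnl1* KO tags (49.5 and 239 scaled). Its ratio was 4.83 (2.89 to 8.59) with all tags and 3.64 (2.11 to 6.72) without single-base tags. Introns held 16 of the WT tags and 97 of the *Mbnl1* KO tags, and no run of overlapping tags reached 10. Intron 6 of the merged model held the most, with 8 WT and 33 *Mbnl1* KO tags (ratio 2.97, 1.35 to 7.45). Intron 9 had 0 WT and 11 *Mbnl1* KO tags, and coding exon 17, of 825 nt, had 1 and 13. Antisense tags over the same body were 15 in WT and 17 in *Mbnl1* KO muscle, so the difference between tables lay on the strand of the gene.

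Of the eIF4A helicases, Eif4a2, the form abundant in muscle, had 5 WT and 28 *Mbnl1* KO tags and a ratio of 4.04 (1.54 to 13.4). All of them were exonic, but the gene hosts 5 small nucleolar RNAs, and 1 WT and 8 *Mbnl1* KO tags lay on these. Without single-base tags the ratio of Eif4a2 was 2.75 (1.05 to 9.14). Its paralogue Eif4a1 had 2 and 4 tags. The 2 genes are close copies, and how the reads they share were placed is not given in the sources used here.

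Eif4e3, which encodes an atypical cap-binding protein, stood at the other end of the order (chr6:99207478-99616791, minus strand). It had 41 WT and 53 *Mbnl1* KO tags (119 and 111 scaled) and a ratio of 0.93 (0.61 to 1.44). No other translation factor gene had as many WT tags. Introns held all 41 WT tags and 50 of the 53 *Mbnl1* KO tags, and introns 7 and 8, of 189791 and 126777 nt, held 18 and 15 of the WT tags. Antisense tags over its body numbered 34 in WT, beside the 41 sense tags, and 30 in *Mbnl1* KO muscle, beside 53. Of the sense tags, 11 WT and 10 *Mbnl1* KO tags were single-base tags. Without them the ratio was 0.71 (0.43 to 1.16), again with an interval that includes 1. With all tags and the median protein-coding gene scaled to 1, the ratio was 0.534 (0.349 to 0.823). Scaled to tags on the strand of protein-coding genes, it was 0.578 (0.377 to 0.891). Under these scalings 14.9% and 12.7% of all protein-coding genes tested had an interval below 1. The remaining cap-binding genes had few tags, with 6 WT and 11 *Mbnl1* KO tags at Eif4e2 and 0 in both tables at Eif4e1b.

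**Figure D2:**
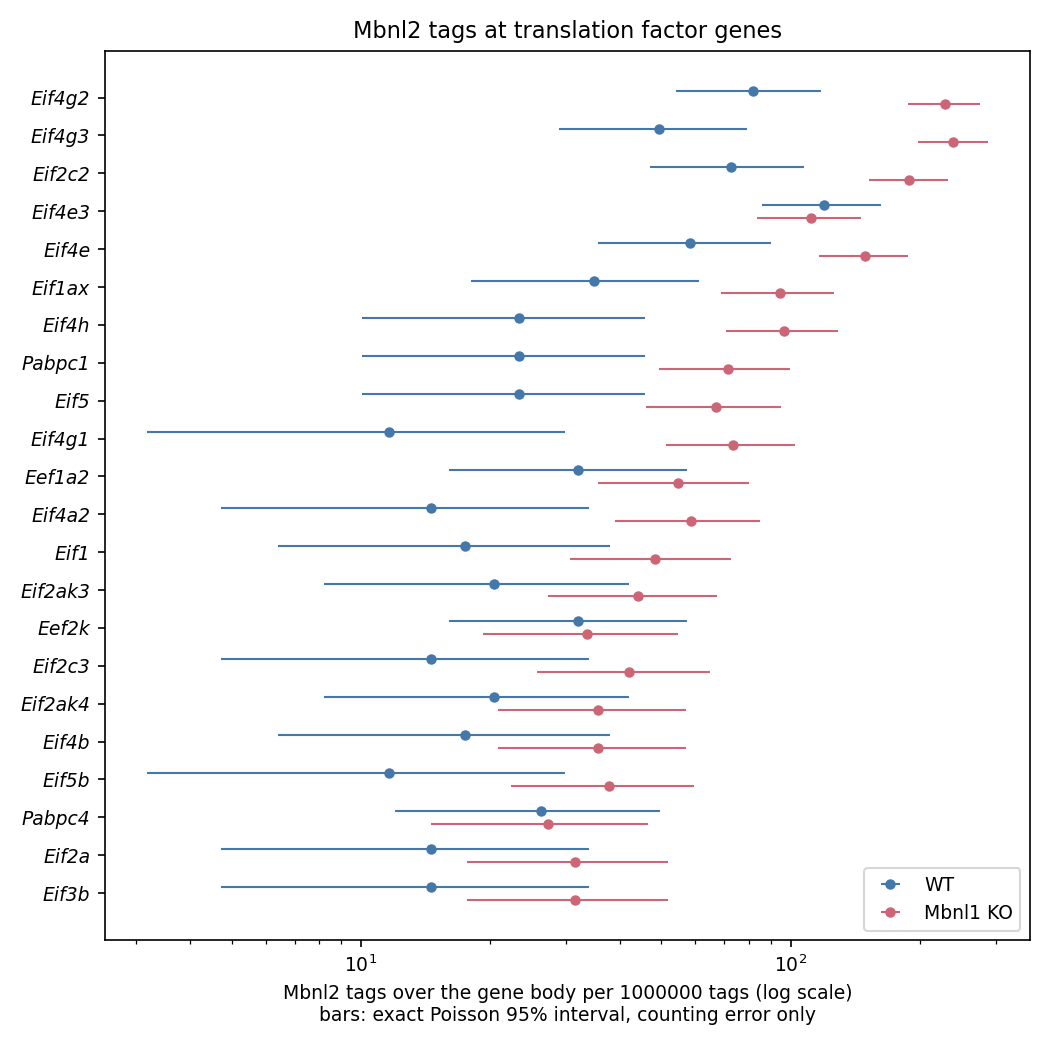
Mbnl2 tags over the gene body per 1000000 tags of the table (x axis, log scale) for the 22 translation factor genes with at least 20 tags, ordered by total tags, in WT (blue) and *Mbnl1* KO (pink). Points are the merged tables and bars exact 95% Poisson intervals of the counts. Eif4g2 was at 81.5 and 229, Eif4g3 at 49.5 and 239, and Eif4e3 at 119 and 111 scaled tags.

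Start codon selection and subunit joining genes formed the second group by tags of both tables together. Eif1ax (chrX:155810110-155827860, plus strand) encodes eIF1A, which with eIF1 keeps the scanning ribosome open. It had 12 WT and 45 *Mbnl1* KO tags (34.9 and 94.4 scaled) and a ratio of 2.70 (1.41 to 5.61). Its last exon held 11 and 41 of these tags. Site 1, 2179 nt past the stop codon and with 3 copies of TGCT, had 1 WT and 10 *Mbnl1* KO tags (ratio 7.21, 1.03 to 313). Eif1 had 6 WT and 23 *Mbnl1* KO tags, all exonic, with a ratio of 2.76 (1.09 to 8.30), and 5 and 19 of them lay in the 3′ UTR. Eif5, the GTPase-activating protein of eIF2, had 8 and 32 tags and a ratio of 2.88 (1.30 to 7.24). Eif5b, the GTPase of subunit joining, had 4 and 18 and a ratio of 3.24 (1.07 to 13.2). Without single-base tags the ratios of Eif1ax, Eif1, Eif5 and Eif5b were 1.84, 1.89, 1.78 and 2.21, with intervals that include 1, as they also do among tags of at least 2 reads. Eif1ax, Eif1 and Eif5b had no single-base tags, so only the scaling differed there. Eif1ad had 5 WT and 12 *Mbnl1* KO tags, 4 and 12 of them in the 3′ UTR. Eif6, which keeps the ribosomal subunits apart, had 6 WT tags and no *Mbnl1* KO tag, and all 6 were intronic single-base tags. Eif1a, a copy of Eif1ax, had 1 and 2 tags, and Eif1b had 0 and 1.

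The Argonaute genes entered through their symbols. Eif2c2 (chr15:72932055-73015377, minus strand), which encodes Ago2, the Argonaute that can cut its target, had 25 WT and 90 *Mbnl1* KO tags (72.8 and 189 scaled) and a ratio of 2.60 (1.65 to 4.22). The last exon held 22 and 80 of them. Without single-base tags the ratio of Eif2c2 was 1.84 (1.17 to 3.03), and with tags of at least 2 reads 1.41 (0.752 to 2.83). Site 1, 3578 nt past the stop codon in a pyrimidine-rich stretch with 1 TGCT, was the largest cluster of the translation factor set, with 11 WT and 25 *Mbnl1* KO tags and a ratio of 1.64 (0.778 to 3.69). Eif2c3 had 5 and 20 tags and a ratio of 2.88 (1.05 to 9.83) that without single-base tags was 2.46 (0.824 to 9.90), Eif2c1 had 2 and 10, and Eif2c4 had 4 and 2. Without the 4 Argonaute genes the summed ratio of the translation factor genes was 2.16 (1.90 to 2.45).

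Genes of eIF2, its exchange factor eIF2B and related factors had few tags. Eif2a, an alternative initiator tRNA carrier, had 5 WT and 15 *Mbnl1* KO tags (ratio 2.16, 0.747 to 7.61), and 4 and 6 of these were single-base tags. The eIF2 subunit genes Eif2s3x and Eif2s2 had 3 and 14 tags and 2 and 13 tags, of which 11 and 10 *Mbnl1* KO tags lay in 3′ UTRs. Eif2s1 had 2 and 4 tags and the Y-linked copy Eif2s3y had 0 and 2. Eif2d had 3 and 9 tags, and all 8 exonic *Mbnl1* KO tags were in its 3′ UTR. The eIF2B subunit genes ranged from 0 tags at Eif2b4 to 4 WT and 7 *Mbnl1* KO tags at Eif2b3. The 11 genes summed to 23 WT and 68 *Mbnl1* KO tags, with a ratio of 2.13 (1.31 to 3.58).

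The eIF2 kinases stop initiation under stress by phosphorylating eIF2 alpha. Eif2ak3 (PERK, which senses unfolded proteins in the endoplasmic reticulum) had 7 WT and 21 *Mbnl1* KO tags and a ratio of 2.16 (0.886 to 6.02). Of these, 3 and 17 lay in intron 14, of 2140 nt (ratio 4.09, 1.18 to 21.8), so its *Mbnl1* KO tags were mostly in a single intron. This intron is named because it held the most tags of the gene, and its interval has no background over other introns. With tags of at least 2 reads Eif2ak3 had 3 WT and 6 *Mbnl1* KO tags and a ratio of 0.747 (0.159 to 4.61). Eif2ak4 (GCN2, which senses uncharged tRNA) had 7 and 17 tags, nearly all intronic, and a ratio of 1.75 (0.690 to 4.99). Of its intronic tags, 4 of 7 in WT and all 16 in *Mbnl1* KO muscle lay within 500 nt of an exon. Short introns leave little room farther away, and 7 of the 16 lay in intron 12, of 1156 nt, and 3 in intron 3, of 378 nt. Over all translation factor genes 57 of 195 WT and 139 of 393 *Mbnl1* KO intronic tags lay this near. Intron length was not adjusted for. Eif2ak1 had 2 and 13 tags and Eif2ak2 had 1 and 3.

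Among the 13 genes of eIF3, the scaffold between the ribosome and eIF4G, only Eif3b reached 20 tags, 5 of them WT and 15 *Mbnl1* KO tags (ratio 2.16, 0.747 to 7.61). Single-base tags made up 2 and 6 of these. Eif3h had 5 and 12 tags, Eif3j 4 and 10, and Eif3c 4 and 9, the last with 3 and 7 in coding exons. The other 9 had 9 tags or fewer over both tables. The 13 genes together had 31 WT and 70 *Mbnl1* KO tags and a ratio of 1.63 (1.05 to 2.57), which without single-base tags was 1.11 (0.70 to 1.79).

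Repressors of the cap-binding protein gave little signal. Eif4ebp2, a 4E-BP that competes with eIF4G for eIF4E, had 6 WT and 10 *Mbnl1* KO tags. Eif4ebp1, the form best known from muscle, had 0 and 1 and Eif4ebp3 had 0 in both tables. Eif4enif1, which carries eIF4E into the nucleus, had 6 and 4. The 4 genes summed to 12 and 15 tags, with a ratio of 0.90 (0.39 to 2.11). Eif4a3, a helicase of the exon junction complex, had 6 and 4 tags, all intronic, of which 6 and 3 were single-base tags.

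Of the 12 elongation factor loci, 2 had at least 20 tags, Eef1a2 and Eef2k, and neither had a ratio of 2 or more, against 41.6% of the 3888 protein-coding genes with as many tags. Eef1a2 (chr2:180882358-180891719, minus strand), the eEF1A of adult muscle, had 11 WT and 26 *Mbnl1* KO tags (32.0 and 54.6 scaled) and a ratio of 1.70 with an interval that includes 1 (0.81 to 3.82). Its exons were densely covered, at 14.0 WT and 25.2 *Mbnl1* KO scaled tags per kb. Its 3′ UTR had 2 adjacent clusters. Site 1, with CGCC once and CGCT 2 times 245 nt past the stop codon, had 3 and 10 tags, and site 2 had 3 and 9. Eef2k, the kinase that switches off eEF2, had 11 WT and 16 *Mbnl1* KO tags and a ratio of 1.05 (0.46 to 2.50). Its second annotated locus, with 3 and 4 tags, lies within the first and shares those tags.

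Eef1a1, the eEF1A of most other tissues, had 2 WT and 14 *Mbnl1* KO tags, all in coding sequence, and a ratio of 5.05 (1.16 to 45.7) that was 3.44 (0.791 to 31.2) without single-base tags. Eef2, the translocase, had 3 and 12, of which 1 and 9 were coding and 1 and 3 lay on Snord37. Eef1a1 is known for its processed pseudogenes, and how reads shared with such copies were placed is not given in the sources used here, so its count is uncertain. Eef1g had 0 WT tags, which allows up to 8.73 scaled tags, and 10 *Mbnl1* KO tags, 7 of them intronic, and the interval of its ratio started at 1.62. Eefsec, which delivers selenocysteine, had 10 WT and 8 *Mbnl1* KO tags, 10 and 7 of them intronic. Eef1d had 4 and 8 tags, Eif5a 3 and 5, and Eef1e1, Eef1b2 and Eif5a2 had 0 WT tags and 6, 5 and 2 *Mbnl1* KO tags. The 12 loci summed to 44 and 112 tags, a ratio of 1.84 (1.28 to 2.66) that without single-base tags was 1.34 (0.93 to 1.97).

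The cytoplasmic poly(A)-binding protein genes differed in where their tags lay. Pabpc1 (chr15:36525416-36538728, minus strand) had 8 WT and 34 *Mbnl1* KO tags (23.3 and 71.3 scaled) and a ratio of 3.06 (1.39 to 7.66). All of them were exonic, 4 and 28 in coding sequence and 0 in the 3′ UTR, and exon 11 held 1 and 13. Pabpc4 had 9 and 13 tags and a ratio of 1.04 (0.41 to 2.76), with 5 and 4 single-base tags. The other genes had 3 tags or fewer, namely Pabpc1l, Pabpc2, Pabpc5 and Pabpc6, and Pabpc4l had 0. Pabpc1 is likewise known to have close processed copies.

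Over the 22 genes that reached 20 tags the median ratio was 2.65, beside 1.75 over the 3888 protein-coding genes with as many. A ratio of at least 2 was found at 17 of the 22, against a background of 41.6% of those 3888 genes, and a ratio of at most 0.5 at 0, against 3.76%. The interval lay above 1 at 13 of the 22, against 38.6%, and below 1 at 0, against 3.83%. The filter counts tags of both tables together, so a gene can pass it through its *Mbnl1* KO tags alone. The 53 loci under 20 tags had 119 WT and 262 *Mbnl1* KO tags and a ratio of 1.59 (1.27 to 1.99), near that of all other protein-coding genes. Just inside the limit stood Eif2a and Eif3b with 20 tags and a ratio of 2.16, and just outside it Eefsec with 18 and a ratio of 0.58 (0.20 to 1.62). Leaving out Eif4g2 and Eif4g3, the genes with the most tags over both tables, the summed ratio was 1.99 (1.75 to 2.27).

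Ordered by ratio, the highest were Eif4g1 (6.31), Eif4g3 (4.83), Eif4h (4.15), Eif4a2 (4.04) and Eif5b (3.24), and the lowest Eif4e3 (0.93), Pabpc4 (1.04), Eef2k (1.05), Eef1a2 (1.70) and Eif2ak4 (1.75). Neighbours in this order have widely overlapping intervals, and their order is not resolved. By role, the summed ratio was 2.57 (2.12 to 3.13) for the 11 cap-binding and eIF4F genes, 2.28 (1.60 to 3.31) for the 8 start codon and subunit joining genes, 2.44 (1.67 to 3.65) for Argonaute, 2.29 (1.31 to 4.21) for the eIF2 kinases (1.63 without single-base tags, 0.917 to 3.05) and 1.80 (1.05 to 3.20) for poly(A)-binding proteins. The intervals of these 5 roles overlap. That of the 4E-BP and eIF4E transport genes, 0.39 to 2.11, ends just below the start of the cap-binding interval, and so does that of Eif4a3, 0.10 to 2.03. Without single-base tags the intervals of the 4E-BP and cap-binding genes, 0.254 to 1.76 and 1.58 to 2.39, overlap. Eif4a3 then had 0 WT tags and 1 *Mbnl1* KO tag. Its interval, from 0.0126 with no upper end, overlaps that of the cap-binding genes too.

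**Figure D3:**
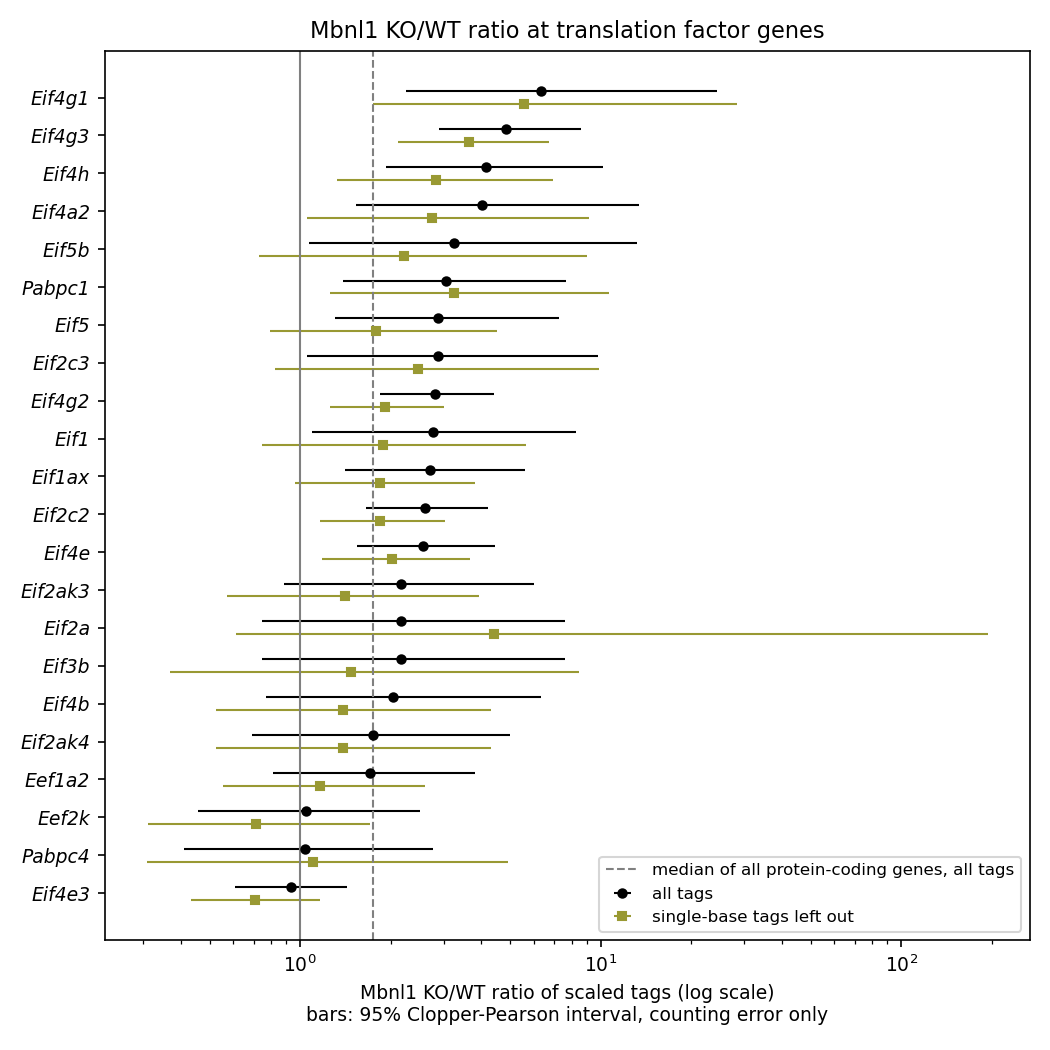
*Mbnl1* KO/WT ratio of scaled tags (x axis, log scale) at the 22 genes, ordered by ratio, with all tags (black circles) and with single-base tags left out (olive squares). Bars are 95% Clopper-Pearson intervals for counting error, the solid line is a ratio of 1, and the dashed line the median of all protein-coding genes, 1.75. Most points lie to the right of the dashed line with all tags, and Eif4e3, Pabpc4 and Eef2k lie near 1.

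The single-base tags and the 1-read tags bear on this count. Without single-base tags, 19 genes had 20 tags, their median ratio was 1.89 beside 1.48 over all 3307 genes, and 8 had a ratio of at least 2, against 29.1%. The interval lay above 1 at 8 of the 19, against 26.5%. With tags of at least 2 reads only, 12 genes remained tested, with a median of 1.78 beside 1.49, and 4 had a ratio of at least 2, against 31.1%, and 0 one of at most 0.5, against 2.24%. The interval then lay above 1 at 2 of the 12, Eif4g2 and Eif4g3, against 18.7%, and below 1 at 0, against 1.55%. Of the tags on the translation factor genes, 56.5% in WT and 39.6% in *Mbnl1* KO muscle rested on 1 read.

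The tags of the translation factor genes lay more often in 3′ UTRs than those of other genes. Their 3′ UTRs held 125 WT tags (34.0%, interval 29.1 to 39.1) and 503 *Mbnl1* KO tags (45.1%, 42.1 to 48.0), whereas in all other protein-coding genes 3′ UTRs held 15.9% and 29.3%. Coding sequence held 8.70% of the WT tags and 15.5% of the *Mbnl1* KO tags, against 6.11% and 10.3% elsewhere. Introns held 53.3% and 35.2%, against 76.2% and 58.6%. These shares depend on how long the UTRs and introns of a gene are, which was not adjusted for.

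**Figure D4:**
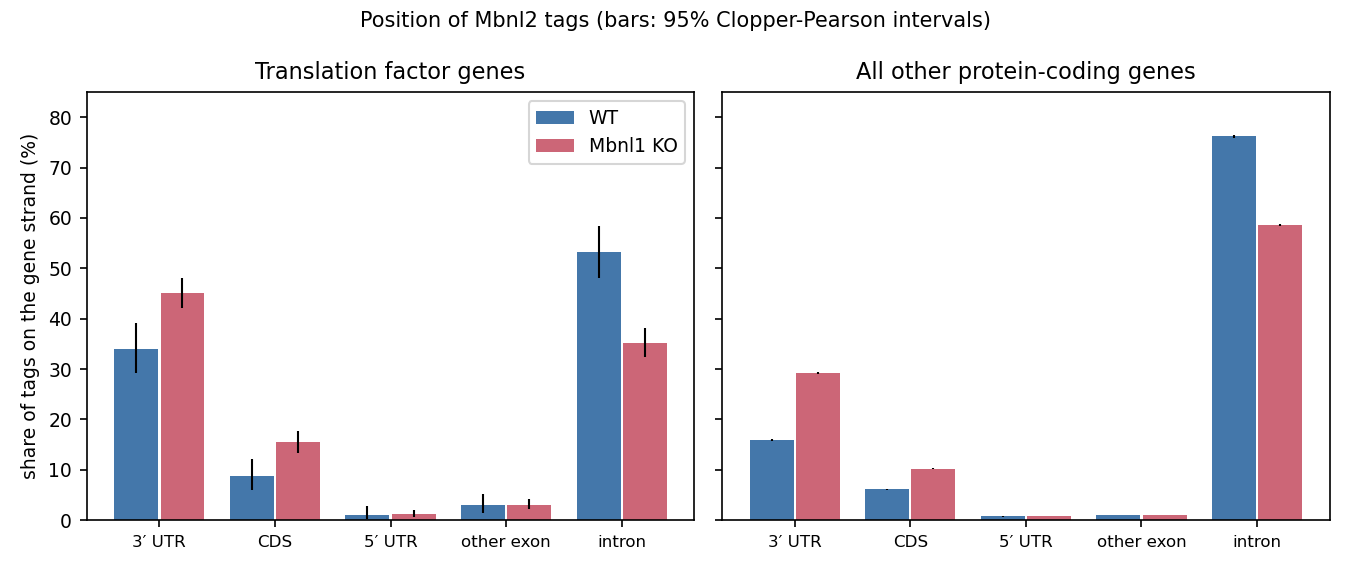
Share of Mbnl2 tags on the strand of the gene (y axis, percent) in 3′ UTR, CDS, 5′ UTR, other exon and intron, for WT (blue) and *Mbnl1* KO (pink) tables, at the translation factor genes (left) and all other protein-coding genes (right). Bars carry 95% Clopper-Pearson intervals. The 3′ UTR share was 34.0% and 45.1% at the translation factor genes and 15.9% and 29.3% elsewhere.

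Compared region by region, the ratios of translation factor genes and other genes differed less in 3′ UTRs than in coding sequence. In 3′ UTRs it was 2.90 (2.38 to 3.56) beside 2.96 (2.90 to 3.01), in coding sequence 3.90 (2.66 to 5.88) beside 2.70 (2.62 to 2.79), and in introns 1.45 (1.21 to 1.72) beside 1.24 (1.23 to 1.25). In all 3 the intervals overlap. Without single-base tags the ratios were 1.98 in 3′ UTRs, 2.61 in coding sequence and 1.25 in introns, beside 2.09, 1.85 and 1.12. Counted over exons alone, 12 translation factor genes had at least 20 tags and their median ratio was 2.71, below the 3.20 over 1145 protein-coding genes. A ratio of at least 2 was then found at 11 of the 12, against a background of 84.1%, and the interval lay above 1 at 10, against 75.9%. Both shares are near the background, so over exons the ratio does not mark out these genes.

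**Figure D5:**
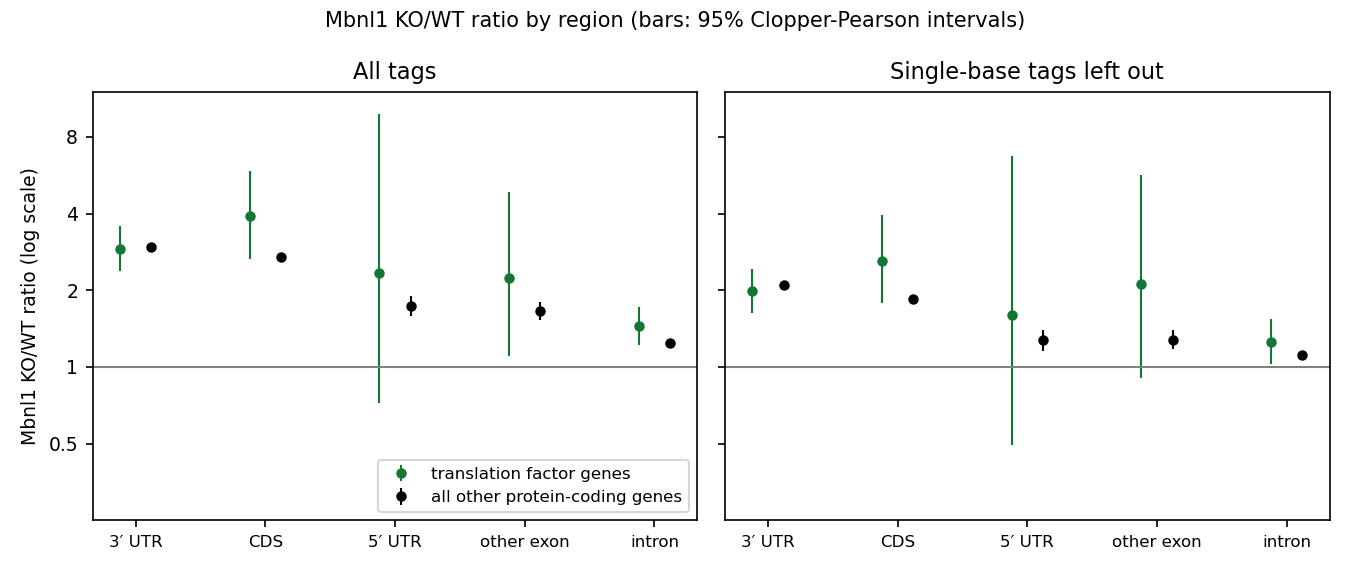
*Mbnl1* KO/WT ratio of scaled tags (y axis, log scale) by region of the gene, for translation factor genes (green) and all other protein-coding genes (black), with all tags (left) and with single-base tags left out (right). Bars are 95% Clopper-Pearson intervals and the line is a ratio of 1. In 3′ UTRs the green and black points lie at 2.90 and 2.96, and in introns at 1.45 and 1.24.

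The clusters repeat this. The 13 in 3′ UTRs held 45 WT and 175 *Mbnl1* KO tags, with a ratio of 2.80 (2.01 to 3.98). Of the 15 clusters, 10 had a ratio of at least 2, against 56.1% of the 2053 clusters in protein-coding genes, and site 6 of Eif4g2, with 0 WT tags, was counted among them. An interval above 1 was found at 5, namely site 1 of Eif4e, Eif4h, Eif4g2 and Eif1ax and site 6 of Eif4g2, against 32.3%. Without single-base tags it stayed above 1 at Eif4e site 1 and Eif4g2 site 6, and it included 1 at site 1 of Eif4h, Eif4g2 and Eif1ax, with ratios of 2.46, 3.69 and 4.92. The counts of these 3 clusters were the same with and without such tags, and only the table totals differed. With tags of at least 2 reads it included 1 at Eif4e site 1 as well, and Eif4g2 site 6 had 0 WT and 5 *Mbnl1* KO tags. With all tags none had one below 1, against 12.5%. A cluster was found from the tags of both tables, and the *Mbnl1* KO table supplied 187 tags where the WT table supplied 55. Site 6 of Eif4g2 reached the limit of 10 tags through its *Mbnl1* KO tags alone. At 0 against 10 tags the interval lies above 1 with or without single-base tags, so its place among these clusters carries no weight.

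Antisense tags over the bodies of the translation factor genes numbered 212 in WT and 176 in *Mbnl1* KO muscle. They were 36.6% (32.6 to 40.6) and 13.6% (11.8 to 15.6) of all tags over these bodies, below the 43.9% and 27.4% of other protein-coding genes. Without single-base tags the shares were 17.0% and 9.55%. Antisense tags were few at Eif4g2 (0 and 1), Eif1ax (3 and 1) and Eif4h (2 and 1), whose sense tags lay mostly in 3′ UTRs, while Eif4e had 13 in WT and 0 in *Mbnl1* KO muscle. The long Eif4e3 and Eif4g3 bodies had 34 and 15 of the WT antisense tags.

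A wider list of 57 genes around translation, of release factors, mTOR signalling, poly(A) and cap regulators, was counted for comparison. It held 344 WT and 989 *Mbnl1* KO tags, with a ratio of 2.07 (1.83 to 2.35), and 24 of its genes had at least 20 tags, with a median ratio of 2.44. Of these, 16 had a ratio of at least 2, against 41.6% of all protein-coding genes, and 13 an interval above 1, against 38.6%. Celf1, a splicing and translation regulator opposed to Mbnl in muscle, had 21 WT and 71 *Mbnl1* KO tags (ratio 2.44, 1.48 to 4.18). Larp4 and Larp4b, whose products bind the poly(A)-binding protein, had 8 and 48 tags and 11 and 41 tags, with ratios of 4.33 and 2.69. Atf4, the transcription factor whose translation rises when eIF2 is phosphorylated, had 9 and 46 (3.68, 1.78 to 8.56). Rptor, the mTORC1 scaffold, had 13 and 39 (2.16). Gigyf2, a partner of the cap-binding repressor 4EHP, and Deptor, an inhibitor of mTOR, had 24 and 32 and 21 and 33 tags, with ratios of 0.96 and 1.13 and intervals that include 1. Without single-base tags these ratios were 1.43 (0.676 to 3.28) and 0.810 (0.428 to 1.58).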

How the data were processed

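Mbnl2 HITS-CLIP tags of quadriceps muscle were analysed as deposited, in 1 merged table per genotype. The authors filtered reads for quality, mapped them to mm9 with BWA (version not given in the sources used here), took out short sequences and PCR duplicates, and pooled 3 mice. Each entry is a unique tag of 18 to 33 nt, although the methods set 20 nt as the shortest length kept, and the count that the authors deposited with it is its number of collapsed reads, 5176203 in WT and 50329234 in *Mbnl1* KO, with no normalization.

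Tags overlapping a gene body on its strand were counted (GENCODE vM1, built on the same assembly as mm9) with Python 3.11.15, numpy 2.4.6, scipy 1.17.1, pysam 0.24.0 and samtools 1.23.1, and plotted with matplotlib 3.10.9. Counts were divided by the tags of the table. A region was assigned by the midpoint of the tag, in the order CDS, 3′ UTR, 5′ UTR, other exon, intron. A tag over several of the genes was counted once in a sum. Intervals are exact at 95% and cover counting error only, and 0 tags allow up to 3 tags, or 8.73 WT and 6.30 *Mbnl1* KO tags per 1000000 tags. Genes with at least 20 tags over both tables were compared, with a ratio of at least 2 or an interval clear of 1 as the calls. With 1 table per genotype no test was made. The counting and intervals were tested on simulated data.

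Named were the genes with at least 20 tags, those with 10 to 19 by counts, the 10 largest clusters and the top cluster of each gene, and genes of the wider list with at least 50 tags, of which 1 is not reported here. Genes below these limits were named after their values were seen. The members and lists were chosen with earlier results of these data known. The alternatives were other scalings, tag filters, duplicate handling, counting rules and tag minimums. All 57 symbols of the wider list were matched.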

Additional observations from a re-analysis of the deposited data

How the results depend on the processing

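No paired analysis was possible because the 3 mice of each genotype were merged into 1 table, and for the same reason no mouse could be left out. Every setting kept the summed ratio of the translation factor genes (2.19) and their median ratio (2.65) above 1. The median over all protein-coding genes (1.75) was above 1 too, except where it was itself scaled to 1. Raw tags gave 3.03 and 3.68, the median beside 2.42 over all protein-coding genes. Exons alone gave a sum of 3.00 and a median of 2.71, below the 3.20 of all protein-coding genes. Scaling the median gene to 1 gave 1.25 and 1.52, and scaling to tags on the strand of protein-coding genes gave 1.36 and 1.64. Leaving out single-base tags gave 1.71 and 1.89, keeping tags of at least 2 reads gave 1.57 and 1.78, both together gave 1.36 and 1.50, and collapsing tags with the same 5′ end gave a sum of 1.92. Over all protein-coding genes the median was 1.48 without single-base tags, 1.49 with at least 2 reads and 1.33 with both. Scaled to protein-coding tags it was 1.08.

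The number of genes with a ratio of at least 2 (17) was 4 of 22 with the median gene at 1 (13.7% of all protein-coding genes tested), 5 of 22 scaled to protein-coding tags (16.6%), 8 of 19 without single-base tags (29.1%), 4 of 12 with at least 2 reads (31.1%), 4 of 12 with both (22.6%), 11 of 12 over exons (84.1%) and 6 of 7 with a minimum of 50 tags (48.1%). At a ratio of at most 0.5 there were 2 of 41 with a minimum of 10 tags, Eif4a3 and Eif4enif1 (6.49% of all genes tested). The number with an interval above 1 (13) was 4, 5, 8, 2 and 1 under the first 5 of these settings (11.8%, 14.8%, 26.5%, 18.7% and 11.1% of all genes tested) and 6 with a minimum of 50 tags (60.7%), and 1 gene, Eif4e3, had an interval below 1 under either rescaling (14.9% and 12.7%). With the median gene at 1, a ratio of at most 0.5 was found at 0 of the 22 and 15.1% of all genes. Fewer genes reach 20 tags once tags are filtered, 19 without single-base tags and 12 over exons or with at least 2 reads.

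For the wider list, the summed ratio (2.07) and median (2.44) were 2.88 and 3.38 with raw tags, 1.19 and 1.40 with the median gene at 1, 1.29 and 1.51 scaled to protein-coding tags, 1.44 and 1.59 with at least 2 reads and 1.24 and 1.41 with both filters, and the sum was 1.61 without single-base tags and 2.74 over exons. The number at a ratio of at least 2 (16) was 6 of 24, 7 of 24, 8 of 21, 6 of 15, 5 of 15 and 10 of 12, beside the same shares of all genes as above, with the median gene at 1, scaled to protein-coding tags, without single-base tags, with at least 2 reads, with both and over exons.

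The WT 3′ UTR share (34.0%) was 40.7% without single-base tags, 47.5% with at least 2 reads and 49.7% with both, and the *Mbnl1* KO share (45.1%) was 48.8% with at least 2 reads and 49.5% with both, so the shares of the genotypes then lay together. The antisense share was 17.0%, 11.6% and 8.38% in WT and 9.55%, 6.65% and 5.67% in *Mbnl1* KO under the same filters, and 17.0% in *Mbnl1* KO with 5′ ends collapsed. A motif (73.3% of clusters) was in 60.0% with a 20-nt window and in 100% of the 3 clusters with at least 20 tags. With both filters Eif5b and Eif4h site 1, whose intervals had been above 1, went to 0.940. Ratios below 1 also arose where the interval had included 1: with both filters at Eef1a2 (0.783), Eif2ak3 (0.627), Eef2k (0.439), Eif4b (0.862), Pabpc4 (0.783), Eif2c2 site 1 (0.731), Eef1a2 site 2 (0.940) and sites 2 and 3 of Eif4g2 (0.392 and 0.313). With at least 2 reads 4 genes did so, Eef1a2, Eif2ak3, Eef2k and Pabpc4, with the median gene at 1 3 (Eef1a2, Eef2k and Pabpc4), scaled to protein-coding tags 2 (Eef2k and Pabpc4), without single-base tags Eef2k, and with tags over 1 gene only Pabpc4. Sites 2 and 3 of Eif4g2 also did so with at least 2 reads (0.467 and 0.373), without single-base tags (0.738 and 0.984) and under either rescaling. Eif2c2 site 1 did so with at least 2 reads (0.871) and with the median gene at 1 (0.939). Of all ratios of single genes under these settings 213 stayed within the interval found with all tags, 22 left it, and 1, that of Eif5b, went from an interval above 1 to a ratio below 1. The causes of these shifts were not tested. With 1 table per genotype, what varies between mice is not measured, and depth limits all genes with few tags.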
